A study of Homo sapiens with 4 samples.

Results

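H3K14ac, an acetyl mark on the tail of histone H3, was profiled by chromatin immunoprecipitation and sequencing (ChIP-seq) in MKN45, an established human gastric cancer cell line. The regions described here are the acetylated regions that were called in both peak lists of the study and that lie away from the ends of genes, called shared distal regions below. They were chosen by their width, their place and their presence in both lists, starting from the list of cells carrying a short hairpin RNA against NIT2 (shNIT2). A region had to be narrower than 2500 bp, to overlap by at least 1 bp a region in the list of cells carrying a control hairpin (shNT), and to have its midpoint more than 1 kb from the start and the end of every protein-coding gene. This gave 2239 of the 28187 shNIT2 regions, and they overlapped 2328 of the 39876 shNT regions.

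The study had 4 samples. They were 1 H3K14ac library and 1 input library (chromatin sequenced without antibody) from shNIT2 MKN45 cells, and the same pair from shNT MKN45 cells. All cells were grown alike, in DMEM with fetal bovine serum, and fixed with formaldehyde, and no drug is named in the labels. NIT2 encodes omega-amidase, an enzyme of glutamine and asparagine metabolism. Whether more than 1 hairpin, clone or culture stood behind each library is not given in the labels. Since each condition has 1 library, no test between conditions could be made, no difference below has a replicate check, and intervals cover counting error only.

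Acetylation of histone tails loosens the hold of DNA on the nucleosome and is read by bromodomain proteins. H3K14ac is written by the GCN5 and PCAF enzymes and by the HBO1 complex (KAT7), and it is found at active promoters and at enhancers, the distal elements that raise transcription of genes at a distance. In cells of the stomach and gut, enhancers are often bound by lineage factors such as ELF3, KLF5, HNF and GATA proteins together with AP-1. Whether a region called here acts as an enhancer was not measured.

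Some of the shared distal regions hold non-coding genes or internal start sites, and the sequences of these are known. In 7 regions lay 8 miRNA genes with 11 mature products, whose 11 seeds all differed. The regions at MIR203A/MIR203B and at MIR193A were the most enriched of the 7 in shNIT2, and their mature sequences (RefSeq, GRCh38.p14) are shown for that reason, with the seed, bases 2 to 8, in capitals.
hsa-miR-203a-3p: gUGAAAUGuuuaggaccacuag
hsa-miR-203a-5p: aGUGGUUCuuaacaguucaacaguu
hsa-miR-203b-3p: uUGAACUGuuaagaaccacugga
hsa-miR-203b-5p: uAGUGGUCcuaaacauuucaca
hsa-miR-193a-3p: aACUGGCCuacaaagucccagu
hsa-miR-193a-5p: uGGGUCUUugcgggcgagauga

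MIR203A and MIR203B are transcribed from opposite strands of the same stretch, and miR-203 is known as a miRNA of epithelial differentiation. Their region, chr14:104116219-104118123 between genes near ASPG, had 82 fragments at its summit in shNIT2, against 7 in shNT, and the summits lay 141 bp apart. The region over MIR193A, chr17:31559295-31560161 near RAB11FIP4, had 49 fragments in shNIT2, against 5 in shNT, with summits 60 bp apart. The other 5 regions, over MIR935, MIR3161, MIR4505, MIR6076 and MIR4449, had lower authors' fold enrichments in shNIT2, between 5.67 and 9.65.

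A RefSeq promoter window runs from 250 bases before to 50 bases after a start site, and a gene with several starts has several windows. Both summits fell inside the same window in 5 shared distal regions, at CHASERR, MTA2, HDGF, SESN1 and CELF2. CHASERR is a long non-coding RNA next to the chromatin remodeller gene CHD2. SESN1 is a stress-induced sestrin and a p53 target, and CELF2 is an RNA-binding splicing regulator. The 250 bases before the start of these 3 windows (RefSeq, GRCh38.p14, 5′ to 3′ on the gene's strand) are shown as examples of the 5. Capitals mark GGGCGG, the core of the GC box, searched on both strands.
CHASERR (chr15:92883046-92883295, plus strand): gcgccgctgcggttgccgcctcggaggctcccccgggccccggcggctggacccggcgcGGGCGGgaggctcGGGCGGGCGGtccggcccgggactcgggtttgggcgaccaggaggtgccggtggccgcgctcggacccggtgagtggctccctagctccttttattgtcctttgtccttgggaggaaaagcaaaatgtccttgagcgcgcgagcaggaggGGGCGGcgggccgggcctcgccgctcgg
SESN1 (chr6:109008989-109009238, minus strand): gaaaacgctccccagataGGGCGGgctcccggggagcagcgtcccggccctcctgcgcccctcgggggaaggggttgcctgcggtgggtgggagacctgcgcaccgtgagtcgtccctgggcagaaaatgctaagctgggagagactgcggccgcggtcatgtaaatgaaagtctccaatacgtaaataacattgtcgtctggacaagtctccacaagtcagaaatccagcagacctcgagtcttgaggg
CELF2 (chr10:11018248-11018497, plus strand): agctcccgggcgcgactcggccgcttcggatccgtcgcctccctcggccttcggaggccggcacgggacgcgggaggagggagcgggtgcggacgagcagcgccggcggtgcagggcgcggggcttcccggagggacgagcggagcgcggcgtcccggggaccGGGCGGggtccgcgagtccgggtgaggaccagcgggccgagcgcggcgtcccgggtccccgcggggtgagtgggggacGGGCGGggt

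At CHASERR the shNIT2 summit lay 134 bases before the start and the shNT summit 115 bases before it, with 111 fragments in shNIT2, against 11 in shNT. At SESN1 the region had 28 fragments in shNIT2, against 3 in shNT, and at CELF2 it had 29, against 3. The shNT values at SESN1 and CELF2 are the lowest of any region in that list. The CHASERR stretch holds the GC box core 4 times with overlaps counted, CELF2 holds it 2 times and SESN1 holds it 1 time.

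Over all chromosomes with promoter windows, 97 of 2174 shared distal regions touched such a window (4.46%, exact 95% interval 3.63 to 5.42%), against 722 of 17435 unshared distal regions (4.14%, 3.85 to 4.45%). The unshared ones are the shNIT2 regions that meet the same limits on width and place but overlap no shNT region. An end of a lncRNA gene lay within 1 kb of 6.65% of the shared distal regions (5.66 to 7.77%) and of 6.91% of the unshared ones (6.54 to 7.29%). In both comparisons the intervals overlap. A promoter window touched may belong to a start inside a gene, to a lncRNA or to a gene just outside whose end lies beyond 1 kb of the midpoint. Of the 52 promoter windows that lay wholly inside a shared distal region, 31 held GGGCGG (59.6%, 45.1 to 73.0%), against 45.0% of all 35116 windows, and their median GC content was 68.7%, against 58.7%. The 52 windows came from 36 regions and some overlap each other, so they are not independent and this interval, whose lower end is at the share of all windows, is too narrow. The palindrome CACGTG was found in 2 of the 52 (3.85%, 0.469 to 13.2%), against 7.26% of all windows. TGANTCA, the AP-1 motif, was found in 9.62% and 7.71% of the same windows, CATTCC, the TEAD motif, in 15.4% and 14.03%, and GGAA, the ETS core, in 98.1% and 95.5%.

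Among all shNIT2 regions 11.7% overlapped an shNT region, and among those that were distal and narrower than 2500 bp the share was 11.0% (2239 of 20408). Since the overlap is the rule itself, the shares that follow describe which regions it picked and nothing is read from them as a difference between conditions. The share rose along 10 equal classes of the shNIT2 list by authors' fold, the ratio of fragments at the summit to the local background after 1 is added to each. It was 4.15% (3.39 to 5.03%) in the weakest class and 38.1% (35.7 to 40.6%) in the strongest. For regions at gene ends, under the same width limit, the shares were 3.57% (2.05 to 5.74%) in the weakest and 28.9% (25.6 to 32.3%) in the strongest class. These classes are not matched on width. At 500 to 1000 bp the share was 11.1% (10.4 to 11.9%) away from gene ends and 8.17% (7.19 to 9.24%) at gene ends. At 1000 to 1500 bp it was 21.6% (19.9 to 23.2%) and 17.2% (14.8 to 19.8%). Below 500 bp and from 2000 to 2500 bp the distal share was also the higher, with overlapping intervals. Only at 1500 to 2000 bp was the order reversed, at 29.0% (26.3 to 31.8%) away from gene ends and 31.0% (25.7 to 36.7%) at gene ends, and these intervals overlap too.

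**Figure D1:**
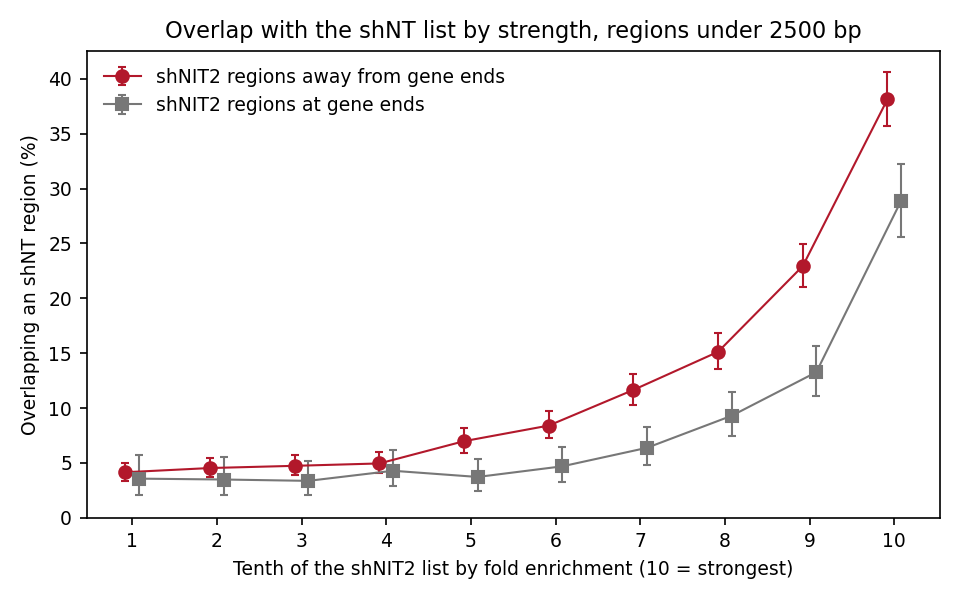
Share of shNIT2 regions narrower than 2500 bp that overlap an shNT region (y axis, percent) in each of 10 equal classes of the shNIT2 list by fold enrichment (x axis, 10 is the strongest), for distal regions (circles) and regions at gene ends (squares), with exact 95% intervals as bars. The share climbs to 38.1% among distal regions and to 28.9% at gene ends in the strongest class.

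Wide regions can meet an shNT region more easily, and the share also rose with width. It was 4.20% (3.796 to 4.64%) below 500 bp and 37.1% (32.9 to 41.4%) from 2000 to 2500 bp. Within a narrow range of strength, at 6 to 8 fold, the share still ran from 6.25% (2.90 to 11.5%) below 500 bp to 29.4% (21.6 to 38.1%) in the widest class. Between genes 12.6% (11.9 to 13.3%) of distal regions were shared, and inside genes 9.71% (9.17 to 10.3%). By chromosome the share was lowest on chromosome 4, at 7.01% (5.30 to 9.07%), and highest on chromosome 19, at 19.7% (16.5 to 23.4%).

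The shared distal regions were strong within the shNIT2 list and ordinary within the shNT list. In shNIT2 the number of fragments at the summit, solved from the authors' values, ranged from 9 to 576 with a median of 33, against a median of 20 in the unshared distal regions. The overlapping shNT regions had 3 to 253 fragments with a median of 7, against a median of 6 over the whole shNT list. In shNIT2 25.8% (24.0 to 27.7%) of the shared distal regions were in the strongest 10% of their list, while their shNT partners were in the strongest 10% of the shNT list in 7.99% (6.90 to 9.20%). Counts in shNT were small: 681 partners (30.4%) had 5 fragments or fewer and 32 (1.43%) had more than 20.

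The median ratio of fragments, shNIT2 over shNT, was 4.86, with quartiles of 3.56 and 6.89. The lowest background of each list, which rises with sequencing depth and fragment length, was 2.48 fragments in shNIT2, against 0.278 in shNT, a ratio of 8.93. Total reads per library are unknown here, so the pileups of the lists are set side by side and not read as a change in acetylation. In such bulk libraries more cells with the mark and more mark per cell cannot be told apart either. At shared regions of gene ends the median ratio was 6, with quartiles of 4.39 and 8.75. Only 2 of the 2239 regions had more fragments in shNT, and they are named for that after their values were seen. The one at chr1:143246867-143247198 had 76 fragments in shNIT2, against 253 in shNT, and the one at chr9:60572085-60572372 had 9, against 19. They lay 655354 and 342144 bp from the nearest gene end. Local background at the chr1 region was high, at 22.0 fragments in shNIT2 and 48.6 in shNT, so that its fold in shNT was 5.13. At the chr9 region it was 2.48 and 0.615 fragments, with 12.4 fold in shNT.

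**Figure D2:**
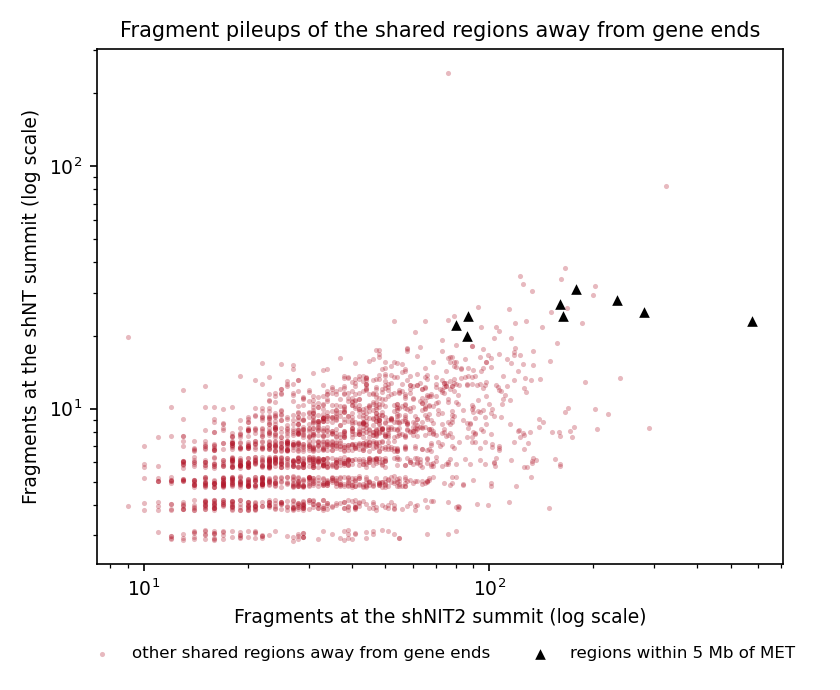
Fragments at the summit of each of the 2239 shared distal regions in shNIT2 (x axis, log scale) and in the overlapping shNT region (y axis, log scale, points spread slightly because counts are whole numbers). Triangles are the 9 regions within 5 Mb of MET on chromosome 7, which stand above most others in shNT at 20 to 31 fragments.

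The strength of a region in one list went with its strength in the other only loosely. Spearman's rho over the 2239 regions was 0.47 for fragments, 0.30 for fold, 0.55 for local background and 0.19 for width. These are descriptions across regions, which share 1 library per list. The regions had to be called in both lists, and shNT fragments were small whole numbers with quartiles of 5 and 9. Such limits can lower rho, so it does not measure how well the libraries agree.

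Summits were close, within the bound that the overlap rule and the widths set. The shNIT2 and shNT summits lay a median of 152 bp apart (142 to 163 bp), with quartiles of 63 and 346 bp. They were within 150 bp of each other in 49.6% (47.5 to 51.7%) of shared distal regions and within 500 bp in 83.5% (81.9 to 85.0%). At shared regions of gene ends the median was 117.5 bp (104 to 131 bp) and 58.3% (54.3 to 62.3%) were within 150 bp. The shNT region was much the narrower one, at a median of 359 bp, against 934 bp for the shNIT2 region, and it lay wholly inside the shNIT2 region in 63.2% (61.2 to 65.2%).

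**Figure D3:**
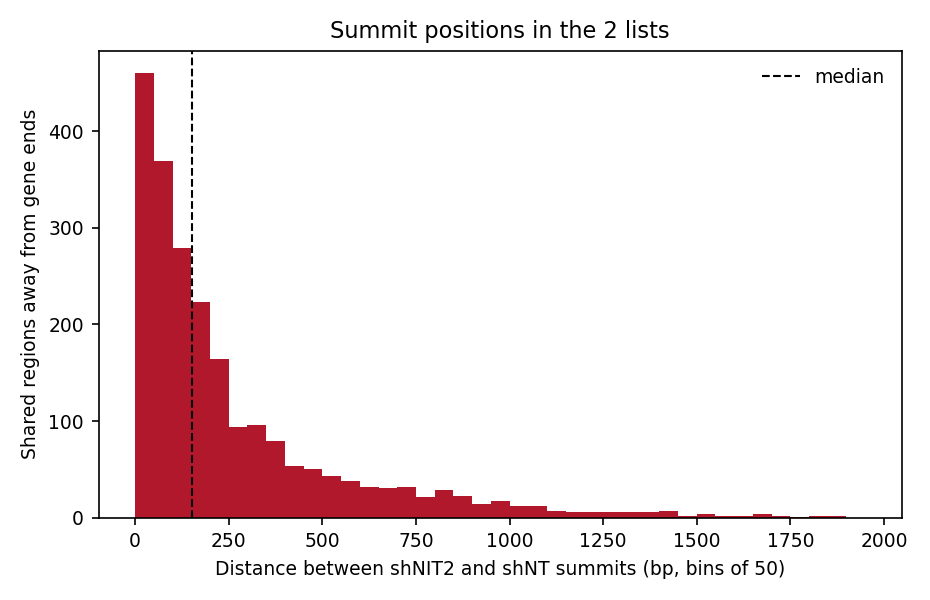
Histogram of the distance between the shNIT2 summit and the shNT summit of the 2239 shared distal regions (x axis, bp, bins of 50 bp; y axis, number of regions), with the median of 152 bp as a dashed line. Counts are highest in the first bins, and 83.5% of the regions are within 500 bp.

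Over all strengths, shared distal regions lay nearer to genes, and less often inside them, than unshared distal regions. The midpoint fell inside a protein-coding gene in 1105 of 2239 (49.4%, 47.3 to 51.4%), against 10272 of 18169 unshared ones (56.5%, 55.8 to 57.3%). Between genes, the nearest gene was a median of 17687 bp away (16227 to 19643 bp), against 32386 bp (31008 to 33762 bp). A gene end was more than 100 kb away for 9.38% (8.20 to 10.7%) of the shared and 16.4% (15.8 to 16.9%) of the unshared distal regions. The difference inside genes varied with strength. Below 4 fold 51.7% (47.1 to 56.2%) of shared and 58.3% (57.3 to 59.3%) of unshared distal regions were inside genes. At 4 to 6 fold the shares were 50.8% (46.99 to 54.6%) and 55.5% (54.25 to 56.8%), with intervals that just overlap. At 6 to 8 fold they were 46.2% (41.3 to 51.1%) and 55.0% (52.6 to 57.4%). At 8 to 12 fold they were 48.2% (43.3 to 53.1%) and 50.5% (47.2 to 53.8%), and their intervals overlap. At more than 12 fold they were 48.1% (41.7 to 54.6%) and 42.0% (35.4 to 48.8%), in the opposite order. The median distance to a gene end had overlapping intervals in the strong classes only. At 8 to 12 fold it was 19794 bp (17128 to 22749 bp) for shared and 22082 bp (19799 to 24794 bp) for unshared distal regions. At more than 12 fold it was 14018 bp (11148 to 19032 bp) and 17143 bp (12434 to 19853 bp). Each class below 8 fold had intervals apart, as at 6 to 8 fold, with 19142 bp (16746 to 21956 bp) and 25258 bp (23436 to 27805 bp). Between genes, the median gap to the nearest gene was smaller for shared distal regions in every class. It was 15421 against 34264.5 bp below 4 fold and 15491 against 22946 bp at more than 12 fold, without intervals. In 132 shared distal regions (5.90%) the body, though not the midpoint, reached into the 1 kb around a gene end.

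At the limit of 1 kb the nearest region inside the rule lay in RPL7L1, with its midpoint 1002 bp from the gene's end and 48 fragments in shNIT2, against 13 in shNT. The nearest one outside it, at 1000 bp from CRYZL2P-SEC16B, had 30, against 4. At the width limit the region in SIM2, 2495 bp wide, had 44 fragments in shNIT2, against 5 in shNT, and the one in CFDP1, 2504 bp wide and left out, had 89, against 16. The other regions among the 5 widest lay near FAM50B, SLC35E3, GABRR2 and PROK1, at 2479 to 2493 bp and 10.9 to 17.0 fold in shNIT2.

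The 10 shared distal regions with the highest fold in shNIT2 reached 29.2 to 43.7 fold. First was a region at chr19:1748094-1750401, whose midpoint is 4259 bp from ONECUT3, a transcription factor of the ONECUT family, with 169 fragments in shNIT2, against 10 in shNT. A region inside MEGF6 had 134 fragments, against 6, and one near LEKR1 had 239, against 13. The region inside MAFG, a small MAF protein that pairs with NRF2, had 174 fragments, against 8. The region inside AHRR, the repressor of the aryl hydrocarbon receptor, had 160, against 6. The p53-induced nuclease gene AEN, the mitochondrial outer membrane channel gene VDAC1, the endophilin gene SH3GL1, ADAP1 and YWHAZ, a 14-3-3 protein, held the other 5, with 143 to 205 fragments in shNIT2, against 4 to 13 in shNT. In the shNT list these 10 had 3.91 to 10.4 fold, and those near ONECUT3 and LEKR1 and inside VDAC1 and YWHAZ were above the upper quartile of 6.61 that the shNT partners of all shared distal regions had.

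The 10 regions with the highest fold in the shNT list were other regions, and they had 76 to 202 fragments in shNIT2, against 24 to 38 in shNT. The first was inside MAGI1, a scaffold protein of tight junctions, at chr3:65951388-65953345, with 162 fragments in shNIT2, against 34 in shNT. The second was downstream of ELF3, with 125 fragments, against 31. The third was inside LRP5, a co-receptor for WNT ligands, with 166 fragments, against 38, and its summits lay 5 bp apart. A region inside BCL2L1, which encodes the survival protein BCL-XL, had 114 fragments, against 27, with summits 10 bp apart. A region 16503 bp from EPHA2, an ephrin receptor of epithelial cells, had 79, against 24. The rest lay near ASB7, TBL1XR1 and AMN1 and, in 2 cases, at the elastase gene CELA3B, at 17.9 to 23.2 fold in shNT. Across these 10 the ratio of fragments, shNIT2 over shNT, stayed between 3.17 and 6.31, whereas it was 14.6 to 37.2 across the 10 strongest in shNIT2, as the choice by either list would make it.

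In all, 1427 shared distal regions stood alone and 812 (36.3%) had another within 12500 bp. Counting neighbours of any kind, 83.7% (82.1 to 85.2%) of shared distal regions lay within 12500 bp of another distal region, shared or not, against 70.2% (69.6 to 70.9%) of the unshared ones. The largest group held 9 regions over 52256 bp around ELF3 (chr1:202007202-202059457). ELF3 is an ETS transcription factor of epithelial cells. Of the 9, 1 lay before the gene, nearer to RNPEP, and 8 lay downstream of it, none inside.

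The regions farthest downstream were the strongest in both lists. In shNIT2 the first 3 downstream regions had 54, 29 and 27 fragments at their summits, against 8, 8 and 6 in shNT. The next 2 had 21 and 37, against 7 and 6. The last 3, from 37075 to 47274 bp past the ELF3 start by their shNIT2 summits, had 77, 119 and 125 fragments in shNIT2, against 15, 18 and 31 in shNT. The last 3 were thus the highest of the 9 in each library, and the farthest was the highest of all. The region before the gene had 39 fragments in shNIT2, against 9 in shNT.

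**Figure D4:**
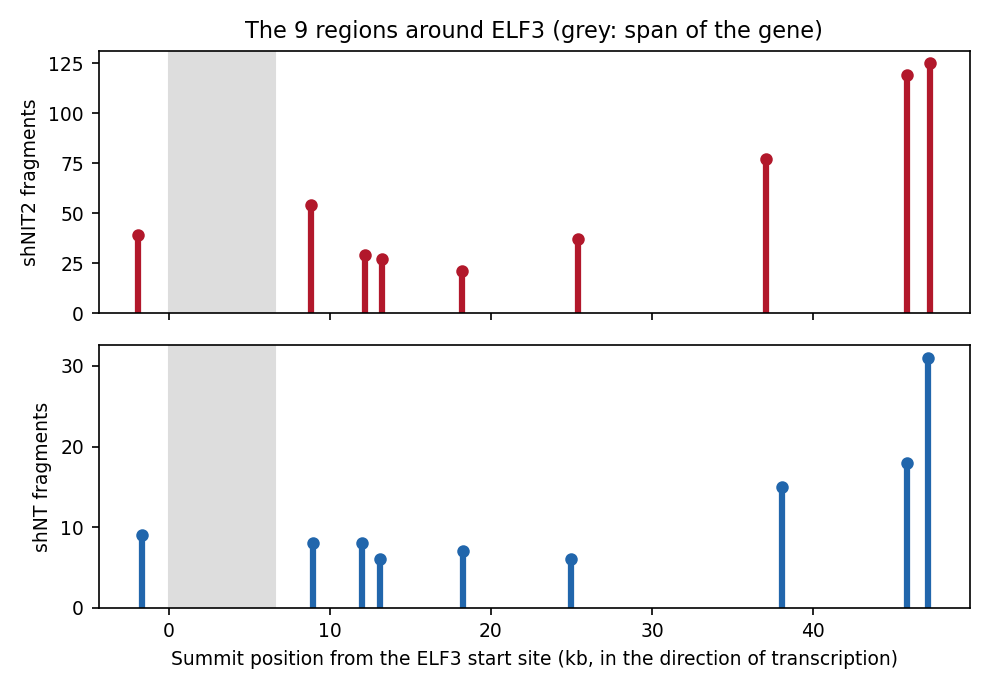
Fragments at the summit (y axes, linear from 0) of the 9 shared distal regions around ELF3 in shNIT2 (top) and shNT (bottom), by the distance of each summit from the ELF3 start site in kb (x axis); the grey band is the gene. The farthest downstream region is the highest in both libraries, at 125 fragments in shNIT2 and 31 in shNT.

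The next groups were 7 regions inside ATP9A, which encodes a phospholipid flippase, and 6 each at GPRC5A, a retinoic acid-induced receptor of epithelia, and at LIPH, a phosphatidic acid lipase. Groups of 5 lay at TXN2 (mitochondrial thioredoxin), CYB5B/TERF2, KIF3C/RAB10, NCOA3 (a nuclear receptor coactivator with acetyltransferase activity) and MAP4K3. There were 16 groups of 4, among which the one at HORMAD2 held the region of highest fold, 24.9 in shNIT2. At ATP9A the 7 regions spanned 28980 bp and had 37 to 101 fragments in shNIT2, against 8 to 14 in shNT. At GPRC5A they had 23 to 118, against 7 to 16, and at LIPH 31 to 85, against 7 to 13. In shNT the values of all 3 groups thus stayed within 7 to 16 fragments. The 1 region that overlapped 3 shNT regions, at chr9:112021072-112022992 near SUSD1, had 110 fragments, against 11 in the strongest of the 3.

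A gene was linked to a region when it held the midpoint or, for a region between genes, when it was the nearest gene. By this rule 1521 of 19884 protein-coding genes (7.65%) were linked to a shared distal region, and 4920 only to unshared ones. Linkage is by place and names no target. Some regions named here touch a promoter window of the linked gene itself, among them those at LGALS4, CLDN4, NQO1, TALDO1, CDKN1A, KRT8, EHF, AEN and ADAP1. The LGALS4 region also reaches over an end of its gene. The bodies of other regions named here reach into the 1 kb around an end of the gene. Among them are those at KRT19, FOSL1, JUN, CLDN7, PKP3, CEACAM6, SKI and PKM. ATP9A had most, with 11 regions, all inside it. SUSD1 had 9, and ELF3, the zinc transporter gene SLC39A11 and PHLDA1 had 8 each. MAP4K3, the cytoskeletal linker gene MACF1 and TRAK1, an adaptor for moving mitochondria, had 7, and GPRC5A and the zinc finger factor gene RREB1 had 6, as had 9 other genes. Among those 9, WWTR1, which encodes the Hippo pathway coactivator TAZ, had all 6 inside it. SLC39A11 was also linked to 35 unshared distal regions.

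Genes linked to shared distal regions were more often acetylated at their own ends. A further shNIT2 region touched the 1 kb around an end of 895 of the 1521 (58.8%, 56.3 to 61.3%), against 49.7% (48.3 to 51.1%) of genes linked only to unshared distal regions and 36.8% of all genes. A further shNT region did so for 12.49% (10.9 to 14.3%), against 7.70% (6.97 to 8.48%) and 6.10%. The shared distal regions and their partners were left out of these counts. The counts were not split by the strength of the linked regions or their distance to gene ends, in both of which shared and unshared distal regions differed.

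The genes were then read by role, with 7.65% of all genes as the background and 6.38 as the median, over all linked genes, of the fold of a gene's strongest region. Of the markers of the cell type, 9 of 11 epithelial genes were linked, all but KRT18 and ESRP2. Of the gastrointestinal ones 3 of 10 were, among them CEACAM6 and GATA6, the latter at a region 137863 bp from the gene. No intervals were computed for these short marker lists. MUC1, CEACAM5, MUC13, TFF1, TFF3, CDX2 and HNF4A were not linked. None of 20 mesenchymal genes and none of 21 muscle and liver genes was linked. Among immune markers 1 of 17 was (PTPRC, at a region 179100 bp from the gene), and among neuron markers 2 of 16. The intervals of all 4 lists of other cell types include the background. Over the 23 lists the 95% interval of the share lay above the background in 7 and below it in 1, with a gene linked as above. The background was not matched on gene length, and a longer gene can hold a midpoint more easily. Nor was it matched on having a distal region of any kind, so these shares are not shown to be particular to shared distal regions.

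Epithelial adhesion and junction genes were linked in 13 of 38 cases (34.2%, 19.6 to 51.4%), with a median of 7.62 fold. CDH1 (E-cadherin) held 2 regions, and the stronger had 50 fragments in shNIT2, against 12 in shNT. Both regions of CLDN4 (claudin) lay outside it, and the stronger had 116, against 19. CLDN7 held 1 with 70, against 8, and PKP3 (plakophilin) 1 with 51, against 4.

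Keratins were linked in 4 of 17 cases (23.5%, 6.81 to 49.9%). The region inside KRT8 had 290 fragments in shNIT2, against 8 in shNT. KRT80 and KRT19 had 114 and 80, against 4 and 11, and KRT17 had 15, against 12. Of the mucins, CEACAMs and trefoil factors 5 of 24 were linked (20.8%, 7.13 to 42.2%). They were led by CEACAM6, an adhesion molecule of gut epithelium, with 166 fragments, against 10, and LGALS4 (galectin) with 67, against 5. MUC20 had 186, against 22, on a local background of 19.8 fragments in shNIT2, and AGR3 had 51, against 13. Integrins, laminins and their partners were linked in 7 of 23 cases (30.4%, 13.2 to 52.9%), with 6 regions at NTN4 (netrin), 4 inside LAMA3 and 1 each at ITGA6 and ITGB5.

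Transcription factors of the gut lineage were linked in 10 of 38 cases (26.3%, 13.4 to 43.1%). After ONECUT3 and ELF3 came KLF5, with 4 regions, of which the strongest had 70 fragments in shNIT2, against 11 in shNT, and lay 249822 bp from the gene. NR5A2 had 65, against 10. FOXA2, GRHL2, KLF4, GATA6 and EHF were linked at 4.30 to 7.27 fold in shNIT2. Immediate early genes and AP-1 members were linked in 10 of 27 cases (37.0%, 19.4 to 57.6%), with a median of 9.95 fold. That is the largest share of the 23 lists under this link, but not with the 50 kb limit, where it was 33.3%, against 47.8% for integrins, laminins and their partners. MAFG led, followed by FOSL1 (the AP-1 protein FRA1) with 107 fragments in shNIT2, against 7 in shNT, IER2 with 83, against 13, and KLF6 with 40, against 5. JUN itself held a region with 28, against 6.

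Genes of NRF2 and oxidative defence were linked in 11 of 32 cases (34.4%, 18.6 to 53.2%), with a median of 8.05 fold. The region beside NQO1, a quinone reductase, had 113 fragments in shNIT2, against 16 in shNT. TALDO1 and UGDH, enzymes of the pentose phosphate and glucuronate routes, had 60 and 67, against 8 and 11, and TXNRD1 (thioredoxin reductase) had 46, against 3. The receptor and driver genes of gastric cancer were linked in 9 of 27 cases (33.3%, 16.5 to 54.0%). Among them were FGFR2 with 64, against 12, at a region 152830 bp from the gene, EPHA2, given above, and CDK6 with 73, against 10. ERRFI1, an inhibitor of EGFR, had 5 regions. TGF-beta and WNT genes were linked in 7 of 25 (28.0%, 12.1 to 49.4%): after LRP5, SKI had 56 fragments, against 4, TCF7L2 66, against 5, and SMAD3 76, against 16.

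The OXPHOS genes, which the study's title names, stood below the background under this link. None of 50 OXPHOS subunit genes of complexes I, III, IV and V was linked (0%, 0 to 7.11%). To unshared distal regions only, 9 of the 50 were linked, against 4920 of all 19884 genes. Linked to neither kind were 41 of the 50, against 13443 of all 19884. The 0 is thus not particular to shared distal regions, and gene length was not taken into account. With a wider limit of 50 kb around the gene, 8 of the 50 (16%) had a shared distal region, against 14.4% of all genes. Cytosolic ribosomal protein genes were linked in 1 of 40 cases, RPS3 (2.5%, 0.0633 to 13.2%), an interval that includes the background, and 6 of the 40 (15%) had a shared distal region within 50 kb. Genes of NIT2 and glutamine metabolism were linked in 4 of 22 (18.2%, 5.19 to 40.3%). Among them were GPT2 with 24 fragments in shNIT2, against 9 in shNT, SLC38A2 (a glutamine carrier) with 31, against 10, and PSPH with 22, against 8.

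Genes that handle fluoropyrimidines were linked in 5 of 24 cases (20.8%, 7.13 to 42.2%). The export pumps led, ABCC4 with 94 fragments in shNIT2, against 10 in shNT, ABCC5 with 74, against 12, and ABCG2 with 36, against 9. CDA (cytidine deaminase) had 48, against 8, and the nucleoside carrier SLC29A1 had 15, against 8. Glycolysis genes were linked in 4 of 22 (18.2%, 5.19 to 40.3%), at LDHA, PKM, PFKL and ENO1. Of p53 targets and apoptosis genes 4 of 24 were linked (16.7%, 4.74 to 37.4%): BCL2L1, SESN1, CDKN1A with 68, against 6, and XIAP with 10, against 4.

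Several of the lists above had shares whose intervals include the background. These were keratins, mucins and their group, glutamine metabolism, fluoropyrimidine handling, glycolysis, and p53 targets and apoptosis. The same holds for the lists that follow. TEAD, YAP and their targets were linked in 2 of 20 cases (10%, 1.23 to 31.7%), WWTR1 and F3. NF-kB genes were linked in 2 of 24 (8.33%, 1.03 to 27.0%), TNFAIP3 and BCL3, and S100 genes in 2 of 17 (11.8%, 1.46 to 36.4%), S100A11 and S100A10. The genes of H3K14 acetyltransferases, readers and deacetylases were linked in 4 of 26 (15.4%, 4.36 to 34.9%), at HDAC1, ZMYND8, JADE2 and KAT6B. KAT7, the catalytic subunit of the HBO1 complex, was 631058 bp from the nearest shared distal region, and NIT2 was 7638488 bp from the nearest.

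**Figure D5:**
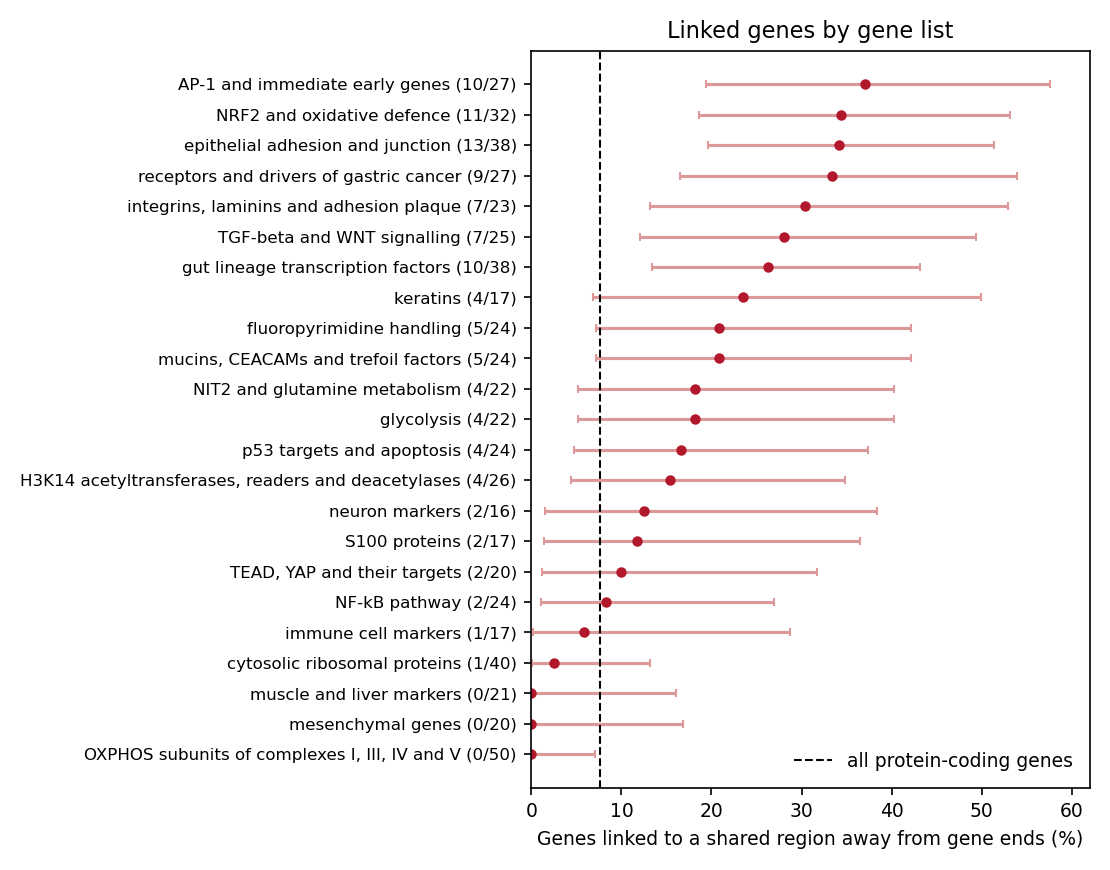
Share of the genes of each list linked to a shared distal region (x axis, percent, with exact 95% intervals), with linked and total genes in brackets and the 7.65% of all protein-coding genes as a dashed line. Immediate early, oxidative defence and epithelial junction genes stand highest under this link, and no OXPHOS, mesenchymal or muscle and liver gene is linked.

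Local background set a small group apart. The highest was not at MET but at chr21:8219670-8220064, 390235 bp from the nearest gene end. It was 152 fragments there in shNIT2, against 46.7 in shNT, and the summit had 326 fragments in shNIT2, against 83 in shNT. MKN45 is known for amplification of MET, the receptor of hepatocyte growth factor, on chromosome 7. The region inside MET, chr7:116770735-116772536, had 576 fragments in shNIT2, against 23 in shNT, on a local background of 81.5 fragments in shNIT2, against 4.90 in shNT. A second one 5882 bp outside the gene had 178, against 31. Of the 14 shared distal regions with at least 4 times the median shNIT2 background, 9 lay within 5 Mb of MET, and these were all the shared distal regions of that stretch, near TFEC, TES, CAV2, MET, CAPZA2, KCND2 and FAM3C. Without the 75 regions with a shNIT2 background of 10 fragments or more, Spearman's rho was 0.45 for fragments and 0.31 for fold over 2164 regions.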

How the data were processed

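The peak lists (narrowPeak) of the 2 H3K14ac libraries were used, and nothing from the inputs. Per the submitters' processing notes, MACS2 2.1.1, Bowtie2 2.2.6, ChIPseeker, Trimmomatic 0.35, FastQC and cutadapt 1.9.1 were used with the build hg38. The treatment of duplicates and the use of input as control are not given in the sources used. The deposited lists hold per peak the authors' score, fold enrichment (a ratio), −log10 p-value and q-value, and summit offset; the smallest −log10 q was 1.30 in each. These are the authors' values and were ranked only within a list.

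Genes were the 19884 protein-coding genes of a RefSeq table of GRCh38.p14, without the 153 it lists on other scaffolds. It has no strand or exons, so exon, intron and UTR were not told apart. Promoter counts leave out chromosome 8, whose windows were not used here. Coordinates are 1-based on hg38. Pileup and background were solved from fold and −log10 p by the Poisson tail, within 0.1%, for all 2239 regions and their partners. Where several shNT regions overlapped, the one with the highest fold was taken. Solution and overlap count were tested on simulated data. Shares have exact (Clopper-Pearson) and medians order-statistic 95% intervals, which cover counting error only; PCR copies and neighbouring regions are not independent.

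The members and the 23 gene lists (592 genes, all found) were chosen with earlier results of these data known. Named were the 10 strongest regions in each list, those overlapping most shNT regions, the 5 widest, those beside the limits, the 10 genes with most regions (ties counted), the 10 largest groups, up to 4 genes per gene list, and MET, NIT2 and KAT7; other names were chosen after their values were seen. Some linked genes are counted but not reported here by name. Alternatives were other limits on overlap, q, fold, place, width and joining distance, and linking a gene by a region in its span or within 50 kb. Python 3.11.15, pandas 2.3.3 and scipy 1.17.1 were used.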

Additional observations from a re-analysis of the deposited data

How the results depend on the processing

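With 1 library per list, no result has a replicate check, and the small shNT pileups limit what could be called there. No paired analysis was possible because each condition has 1 library and no test was made. A 50% reciprocal overlap left 666 regions, 3.26% of the distal shNIT2 regions. A −log10 q of at least 5 in both lists left 867, or 7.57% of the distal shNIT2 regions that meet that limit, and a fold of at least 5 left 898, or 14.9% of those that meet it. In this order, 46.7%, 45.3% and 45.1% were inside genes, the median distance between summits was 94.5, 124 and 124 bp, 16.5%, 31.4% and 32.5% were in groups, 578, 657 and 673 genes were linked, and the median pileup in shNIT2 was 28, 46 and 48 fragments. In shNT it was 9 under the q and fold limits. With the ends of every gene of the table, non-coding ones included, 51.5% were inside genes, and with a joining distance of 25 kb 42.6% were in groups. A limit of 3 kb gave 1970 regions, the ends of every gene 2049, no width limit 2639, and the genes on other scaffolds 2239. In alternatives added after seeing the data, 2107 regions lay wholly beyond 1 kb, and 2142 were left without those seen to touch a promoter window. The 2142 include the 65 regions of chromosome 8, which were not checked for windows. With genes linked by a region in the span or within 50 kb, counts moved by over 1.5 times in 9 of the 23 gene lists: 8 keratins, 9 mucins and their group, 11 integrins and laminins, 8 OXPHOS, 6 ribosomal, 8 glycolysis, 8 fluoropyrimidine, 4 NF-kB and 2 immune genes, beside a background of 14.4% of all genes.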
